A study of Sus scrofa with 6 samples.

Results

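CYP2B22 and a small set of related genes of the cytochrome P450 system were followed across 6 RNA pools of pig abdominal aorta. The list held 9 symbols, namely CYP2B22, CYP1A1, CYP1B1, CYP27A1, CYP7B1, CYP2U1, CYP20A1, CYP3A29 and POR, the reductase that passes electrons to most of these enzymes. Of the 9 symbols, 3 were in the symbol column of the gene table of 22861 genes: CYP2B22, CYP1A1 and CYP2U1. The identifier of the CYP2B22 row is not in the reference table of names, so its symbol rests on the deposited table alone. CYP27A1 and CYP7B1 were found only through the gene identifier, which that reference pairs with these symbols, and their values are given apart from those of the other 3. CYP1B1, CYP20A1, CYP3A29 and POR were not analysed here. CYP2B22 was chosen by its lower counts in lesion pools of this same comparison, and the genes around it were listed with that known, so the differences of the listed genes between the groups are given as a description and carry no test.

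The 3 lesion pools (replicates 1, 2 and 3) came from the FH line of Wisconsin Miniature Swine (WMS FH), in which familial hypercholesterolaemia raises blood cholesterol by inheritance, and the aortic tissue carried atherosclerotic lesions. The 3 lesion-free pools (replicates 4, 5 and 6) came from abdominal aorta of WMS normal animals, without lesions. Each group had 11 animals, whose RNA was merged into its 3 pools, and which animals entered which pool is not stated. The p-values below therefore measure the spread between pools. Lesion status and the swine line went together in every pool, and sex, age, diet and sequencing batch are not given per pool, so none of these can be told apart from the lesion.

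P450 enzymes hold a heme group and insert an oxygen atom into lipophilic substrates, using electrons from a redox partner. Enzymes of families 1 and 2 are best known from liver, where they clear drugs and other foreign compounds, whereas others act on the body's own lipids: sterols, bile acid precursors, vitamins A and D, and the arachidonic acid products that act on vessels. In the artery wall the best known P450 is PTGIS, which makes prostacyclin, a dilator and inhibitor of platelets.

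CYP2B22, a pig enzyme of the CYP2B subfamily that oxidises foreign compounds, stood far lower in lesion pools. It had 403, 642 and 372 counts in the lesion pools, against 5640, 2911 and 3118 counts in the lesion-free pools. As CPM, the count scaled to a common library size (TMM, a trimmed mean of log ratios), this was 77.5, 57.3 and 33.9 CPM in lesion pools, against 608, 349 and 317 CPM in lesion-free pools. The groups did not overlap, and the highest lesion pool was far below the lowest lesion-free pool. The mean was 56.2 ± 21.8 CPM in lesion pools and 424 ± 160 CPM in lesion-free pools (SD, n = 3 pools each). The fitted log2 fold was -2.98 (SE 0.35), or 7.90-fold lower. In bulk tissue, fewer cells that hold a transcript and less of it per cell cannot be told apart.

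Counting error was small beside the spread between pools for this gene. The exact Poisson interval at 95% ran between 30.6 and 37.6 CPM in lesion replicate 3, the lowest pool, and between 592 and 624 CPM in lesion-free replicate 4, the highest. Such intervals cover counting error only. Within each group the spread was wide: lesion replicate 1 held more than lesion replicate 3, and lesion-free replicate 4 stood above both other lesion-free pools. Leaving out 1 pool at a time gave log2 folds between -3.20 and -2.63, the smallest of them without lesion replicate 3.

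Of the 3 genes found by symbol, 2 passed the low-count filter, and 1 of them, CYP2B22, is among the genes that the fit over all genes called lower at an adjusted p under 0.05. In the same comparison 0.0771% of the 11673 genes tested were called lower, 0.968% higher and 1.05% in either direction. Since CYP2B22 was chosen for this difference, that call is no test of it and nothing is read from the count. Among the genes tested, 56 had a lower log2 fold than CYP2B22. Among the 10011 of them whose log2 CPM averaged 1 or more, 10 had a lower one, so most of the lower log2 folds were in genes of few counts.

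**Figure D1:**
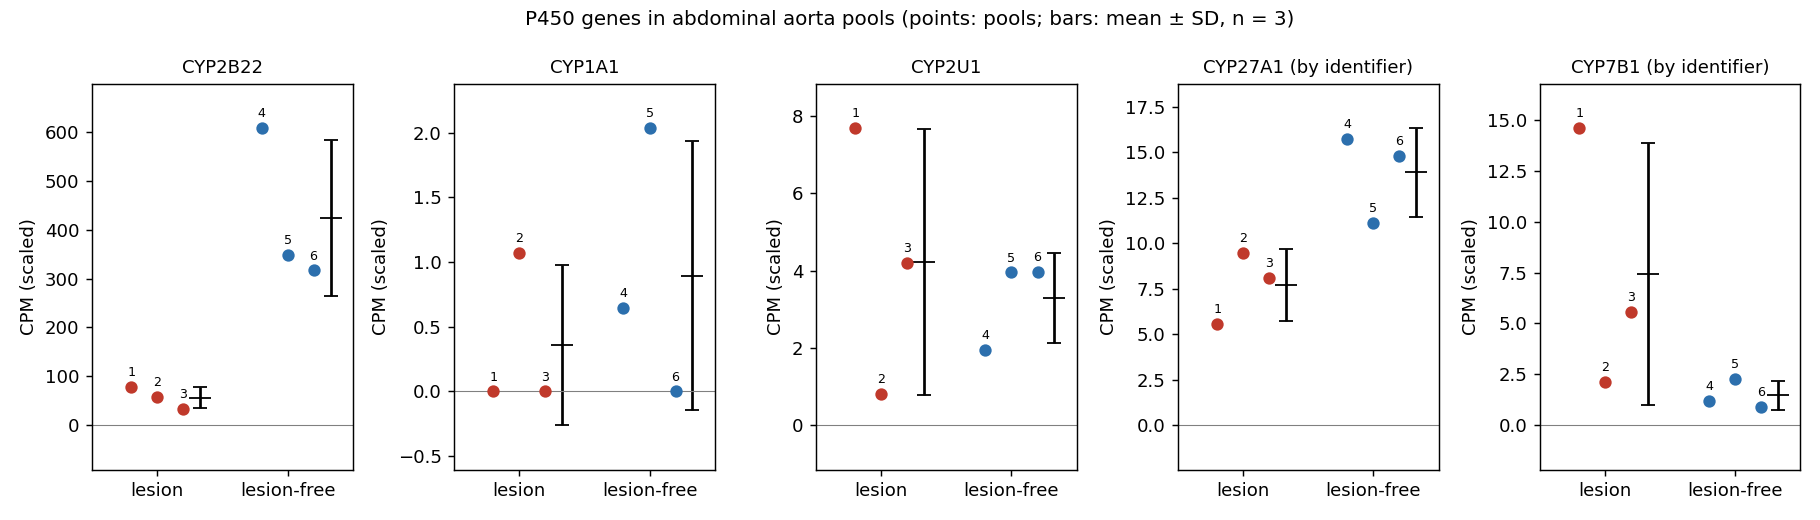
Scaled CPM (y axis) of the 5 listed genes with values, in lesion pools (red, replicates 1 to 3) and lesion-free pools (blue, replicates 4 to 6); points are pools and bars the mean ± SD (n = 3). CYP2B22 averaged 56.2 CPM in lesion pools and 424 CPM in lesion-free pools without overlap, whereas the groups overlap for CYP1A1, CYP2U1 and CYP7B1.

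CYP2U1, which hydroxylates long-chain fatty acids, was low in all pools and differed as much within as between groups. It had 40, 9 and 46 counts in lesion pools, against 18, 33 and 39 counts in lesion-free pools. This was 7.69, 0.803 and 4.20 CPM in lesion pools, against 1.94, 3.95 and 3.96 CPM in lesion-free pools. Lesion replicate 1 was the highest and lesion replicate 2 the lowest of all 6, so the groups overlapped. The mean was 4.23 ± 3.44 CPM in lesion pools and 3.28 ± 1.16 CPM in lesion-free pools (SD, n = 3 pools each). The fitted log2 fold was -0.37 (SE 0.98), whose sign is opposite to that of the difference in mean CPM. Without lesion replicate 2 it was 0.67, and no direction is given for this gene.

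CYP1A1, the enzyme that the aryl hydrocarbon receptor AHR induces most strongly, was near the detection limit. It had 0, 12 and 0 counts in lesion pools, against 6, 17 and 0 counts in lesion-free pools. In CPM this was 0, 1.07 and 0 in lesion pools, against 0.647, 2.04 and 0 in lesion-free pools. For the pools at 0, 3 counts would stand at 0.577 CPM in lesion replicate 1, 0.274 CPM in lesion replicate 3 and 0.305 CPM in lesion-free replicate 6. The upper ends of the exact Poisson interval at 95% are 0.709, 0.337 and 0.375 CPM in the same pools. CYP1A1 did not reach the low-count filter, the groups overlapped, and a difference was not detectable at this depth.

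The 2 sterol-handling enzymes matched by identifier stood on opposite sides. CYP27A1, the mitochondrial enzyme that hydroxylates the side chain of cholesterol, had 29, 106 and 89 counts in lesion pools, against 146, 93 and 146 counts in lesion-free pools. Its level was 5.57, 9.46 and 8.12 CPM in lesion pools, against 15.7, 11.1 and 14.8 CPM in lesion-free pools. Every lesion pool was below every lesion-free pool, as was so in this direction for 8.97% of all genes tested. The mean was 7.72 ± 1.97 CPM in lesion pools and 13.9 ± 2.44 CPM in lesion-free pools (SD, n = 3 pools each), with a log2 fold of -0.77 (SE 0.46).

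CYP7B1, which hydroxylates the oxysterols that CYP27A1 and CH25H make, had 76, 24 and 61 counts in lesion pools, against 11, 19 and 9 counts in lesion-free pools. These counts were 14.6, 2.14 and 5.57 CPM in lesion pools, against 1.19, 2.28 and 0.914 CPM in lesion-free pools. Lesion replicates 1 and 3 were high, and lesion replicate 2 lay just below lesion-free replicate 5, so the groups overlapped. The log2 fold was 1.68 (SE 1.14).

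The difference in CYP2B22 was set beside the markers of the cell types of the wall. Contractile smooth muscle is the cell type that fills the medial layer, and its markers were abundant in all 6 pools. Of 8 tested markers of it, limma called 2 lower, CNN1 and DES, against 0.0771% of all genes tested. At an unadjusted p under 0.05, 6 were lower and 0 higher, against 484 lower and 757 higher of 11673 genes tested. The list's summed level was 37120 to 49200 CPM in lesion pools against 75839 to 86543 CPM in lesion-free pools. Macrophage markers summed to 1338 to 3060 CPM in lesion pools against 146 to 263 CPM in lesion-free pools. Limma called 8 of 8 tested higher, against 0.968% of all genes tested. CD163, matched but too low to be tested, had 0, 0 and 6 counts in lesion pools and 0, 0 and 7 in lesion-free pools. Limma called none of 9 endothelial markers (3 higher and 1 lower at an unadjusted p under 0.05) and none of 9 adventitial fibroblast markers (3 higher and 0 lower). The part of these shifts in the CYP2B22 difference was not tested, but the level of CYP2B22 relative to them can be given.

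Per 1000 counts of the contractile markers, CYP2B22 had 2.09, 1.21 and 0.690 counts in lesion pools, against 7.02, 4.60 and 3.90 counts in lesion-free pools. The groups did not overlap, and the mean ratio was 3.89-fold lower in lesion pools, less than the difference per library. The CYP2B22 counts in this ratio are those by which the gene was chosen, so it is a description and no test. Per 1000 counts of the endothelial markers the values were 119.9, 64.5 and 36.7 in lesion pools, against 819, 481 and 461 in lesion-free pools, a mean ratio 7.96-fold lower in lesion pools. Per 1000 counts of the fibroblast markers it was 6.76-fold lower. The endothelial list summed to 646 to 925 CPM in lesion pools against 687 to 742 CPM in lesion-free pools, and the fibroblast list to 1772 to 2084 CPM in lesion pools against 1817 to 2434 CPM in lesion-free pools. Since these sums differ little between the groups, the ratios to them restate the difference per library for which CYP2B22 was chosen.

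**Figure D2:**
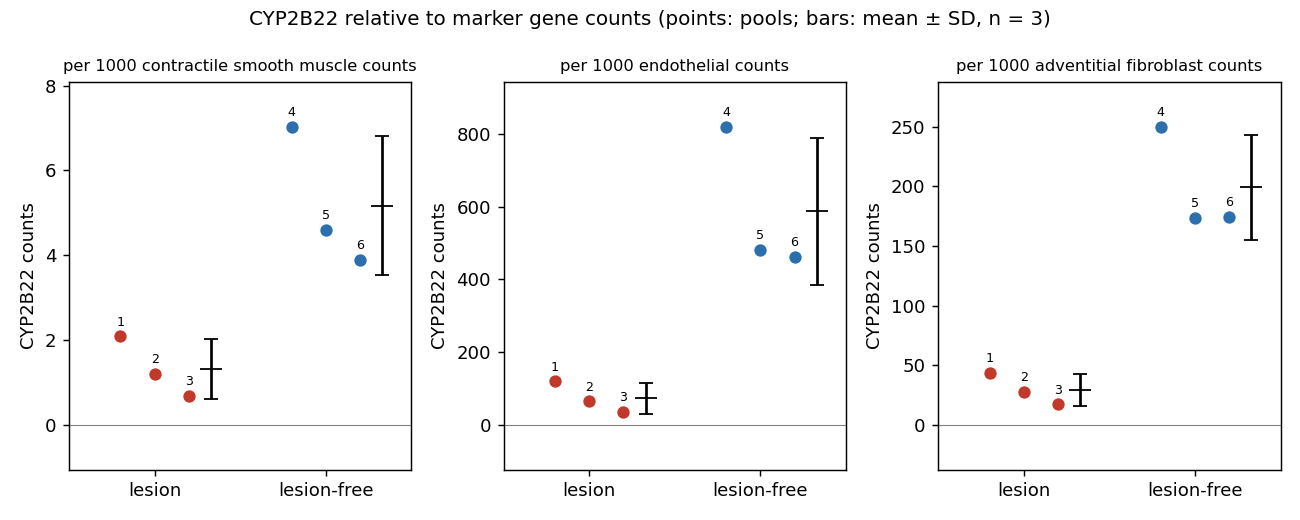
CYP2B22 counts per 1000 counts of contractile smooth muscle, endothelial and adventitial fibroblast markers (y axis of each panel), in lesion pools (red) and lesion-free pools (blue); points are pools and bars the mean ± SD (n = 3). In each panel all lesion pools lie below all lesion-free pools, with mean ratios 3.89-fold, 7.96-fold and 6.76-fold lower. The CYP2B22 counts are those by which the gene was chosen, so the panels are a description.

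Because CYP2B enzymes are best known from liver, hepatocyte markers were looked at in the same pools. ALB, the liver's serum albumin, had 0, 6 and 5 counts in lesion pools and 0 counts in each lesion-free pool, and SERPINA1, FGG, APOH and AHSG were at 0 in all 6. APOA1, the lipoprotein component that liver also secretes, was carried by 2 gene entries with counts in every pool, the only 2 of the list that were tested. These entries went opposite ways. One had 4, 160 and 191 counts in lesion pools against 287, 268 and 361 in lesion-free pools (log2 fold -1.76, without overlap). The other had 224, 446 and 658 counts against 567, 54 and 225 (log2 fold 1.14, with overlap). The hepatocyte list summed to 43.8 to 79.7 CPM in lesion pools and 38.6 to 92.9 CPM in lesion-free pools, and limma called 0 of its 2 tested entries (1 lower at an unadjusted p under 0.05). Of the adipocyte list, 3 of 8 markers were matched. Their summed level was 35.1 to 64.4 CPM in lesion pools and 28.0 to 80.9 CPM in lesion-free pools. Most of this sum was PLIN4, at 37.9, 62.3 and 33.1 CPM in lesion pools and 25.4, 70.9 and 79.6 CPM in lesion-free pools. LEP was at 0 in all pools, and PLIN1 had 0, 23 and 22 counts in lesion pools and 24, 64 and 12 counts in lesion-free pools. Neither of the 2 tested was called, with 0 at an unadjusted p under 0.05. The Schwann and T cell lists had 4 and 2 tested markers, of which limma called none, with 0 at an unadjusted p under 0.05.

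In the isoform table a single transcript named CYP2B22-201 carried the gene's reads, with a count equal to the gene's in 6 of 6 pools. A further transcript of that name had 0, 3 and 2 counts in lesion pools and 0, 6 and 4 counts in lesion-free pools, and its counts belong to an unnamed gene entry. CYP1A1 and CYP2U1 had 1 transcript each, equal to their gene count.

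The nearest named genes beside CYP2B22 did not share the size of its difference. Their order came from the RefSeq annotation of assembly Sscrofa11.1, used here only for names and neighbours. Genes with a provisional LOC name, or with no match in the gene table, were passed over and not looked at. Of the rest, the 3 nearest on one side of the RefSeq gene CYP2B22 are MIA, RAB4B and EGLN2. The 3 nearest on the other are AXL, HNRNPUL1 and CCDC97. Of these 6 genes, 5 were tested and 0 were called by limma, against 1.05% of all genes tested. At an unadjusted p under 0.05, 2 were lower, RAB4B and CCDC97. Over all 11673 genes tested, 484 were lower and 757 higher at that threshold. The log2 folds of the 5 neighbours tested lay between -0.81 and -0.17. RAB4B, an endosomal GTPase, was at 20.4 ± 0.41 CPM in lesion pools and 36.7 ± 8.77 CPM in lesion-free pools (SD, n = 3 pools each). AXL, a receptor tyrosine kinase, was at 67.8 ± 19.6 CPM in lesion pools and 76.9 ± 14.7 CPM in lesion-free pools.

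The genes whose profile was most like that of CYP2B22 were ranked over the 6 pools by the root mean square difference of log2 CPM centred on each gene's mean, among 7814 genes that had a symbol and averaged 1 or more on the log2 CPM scale. The 5 closest were SFN at 0.727, CILP2 at 0.782, DARC at 0.791, PKP3 at 0.816 and PPAP2C at 0.849, against a median of 1.61 over the genes ranked. They are lower in lesion pools by choice of the measure, and that direction is no result. CILP2, a cartilage matrix protein, had 6.92, 26.9 and 8.12 CPM in lesion pools, against 74.9, 70.2 and 92.3 CPM in lesion-free pools. SFN and PKP3, which are known from epithelia, had 33 and 39 counts in the lesion pools together and 101 and 122 in the lesion-free pools. None of these 5 reached the fold of CYP2B22.

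**Figure D3:**
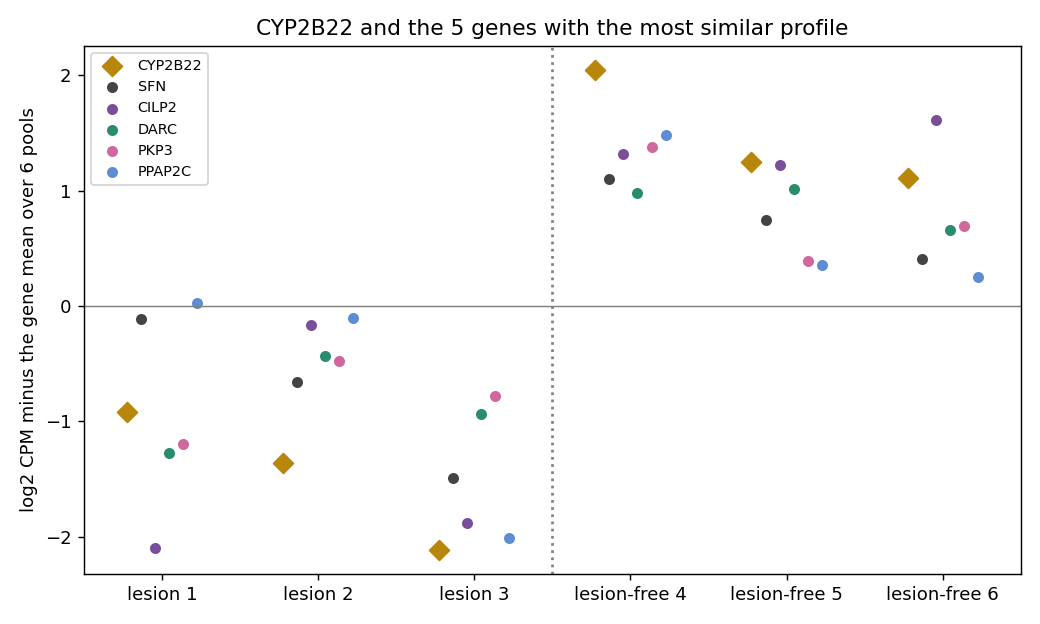
Log2 CPM minus each gene's mean over 6 pools (y axis) for CYP2B22 and the 5 genes of the closest profile, by pool, lesion pools left and lesion-free pools right of the dotted line. CYP2B22 (diamonds) is highest in lesion-free replicate 4 and lowest in lesion replicate 3; all 6 genes are above their mean in the lesion-free pools.

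The other P450 genes of the table were looked at in the same fit. Besides the listed genes, 25 P450 genes were in the gene table, 19 had a count and 11 were tested. Limma called 0 of these 11, against 1.05% of all genes tested. At that share, 0 calls in a list of 11 genes is no result. At an unadjusted p under 0.05, 2 were higher and 0 lower, against 757 higher and 484 lower of 11673 genes tested. The median log2 fold of the 11 genes was 0.28, against -0.0022 over all genes tested. CYP2E1, CYP4X1, CYP4F22, CYP2W1, CYP19A1 (aromatase) and CYP26C1 were at 0 in all pools. The genes named below beyond those of highest mean level in each list were chosen after their values were seen.

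PTGIS, the prostacyclin synthase, had 664, 821 and 744 CPM in lesion pools, against 560, 594 and 801 CPM in lesion-free pools, and the groups overlapped. The log2 fold was 0.20 (SE 0.27, limma adjusted p = 0.824). TBXAS1, the thromboxane synthase of platelets and macrophages, had 0, 4 and 0 counts in lesion pools, against 0, 0 and 1 in lesion-free pools. Of the 2 P450 enzymes that share an arachidonate-derived substrate, only PTGIS therefore stood clear of the floor of counts.

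CYP2C42, a pig enzyme of the CYP2C subfamily that handles foreign compounds, had 61.9, 49.3 and 80.8 CPM in lesion pools, against 116, 57.1 and 29.2 CPM in lesion-free pools. Its groups overlapped, with a log2 fold of 0.12 (SE 0.43, limma adjusted p = 0.942). The log2 fold was 0.64 when lesion-free replicate 4 was left out and -0.38 when lesion-free replicate 6 was, so its sign turns on single pools. The mean was 64.0 ± 15.8 CPM in lesion pools and 67.6 ± 44.6 CPM in lesion-free pools (SD, n = 3 pools each), a difference of the opposite sign to the fitted one.

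CYP1A2, the liver partner of CYP1A1 and its neighbour on the chromosome, had 32, 37 and 31 counts in lesion pools, against 11, 0 and 0 counts in lesion-free pools. The counts of the 3 lesion pools were all above those of the lesion-free pools, 2 of which had none. Of all genes tested, 10.5% were higher in lesion pools without overlap, and 19.4% did not overlap in either direction. In CPM these were 6.15, 3.30 and 2.83 in lesion pools, against 1.19, 0 and 0 in lesion-free pools, and limma's adjusted p was 0.368. CYP4V2, a fatty acid hydroxylase, was at 7.89 ± 1.22 CPM in lesion pools and 2.40 ± 1.46 CPM in lesion-free pools (SD, n = 3 pools each), without overlap (limma adjusted p = 0.46).

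CYP7A1, the rate-limiting enzyme of bile acid synthesis in liver, had counts in lesion pools only. It had 35, 12 and 463 counts in lesion pools, against 0 counts in each lesion-free pool. Against a floor of 3 counts over the lesion-free group the summed lesion level stood 171-fold higher. Without lesion replicate 3, which held most of the counts, it stood 26.2-fold higher. These folds leave out the spread between pools and are no lower bound. The fitted log2 fold was 6.95 (SE 3.77). The spread between lesion pools was wide and limma did not call the gene (adjusted p = 0.562).

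The P450 enzymes of vitamins and sterols showed smaller differences. CYP24A1, which inactivates vitamin D, was at 63.4 ± 17.2 CPM in lesion pools and 50.7 ± 12.3 CPM in lesion-free pools (SD, n = 3 pools each). CYP51, which demethylates lanosterol on the way to cholesterol, was at 19.3 ± 2.37 CPM in lesion pools and 28.2 ± 8.88 CPM in lesion-free pools. CYP39A1, an oxysterol hydroxylase, had 3, 86 and 66 counts in lesion pools and 90, 109 and 48 counts in lesion-free pools. The groups overlapped for each of these genes and none was called. CYP2R1, which activates vitamin D, CYP26B1, which degrades retinoic acid, and CYP21, the steroid hydroxylase, had log2 folds of 0.39, 1.60 and -0.55 with overlapping groups, and the sign for CYP21 changed when single pools were left out (-2.71 to 1.71). Leaving out lesion replicate 1 gave CYP26B1 a value of 2.70, and leaving out lesion-free replicate 4 gave 0.06.

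**Figure D4:**
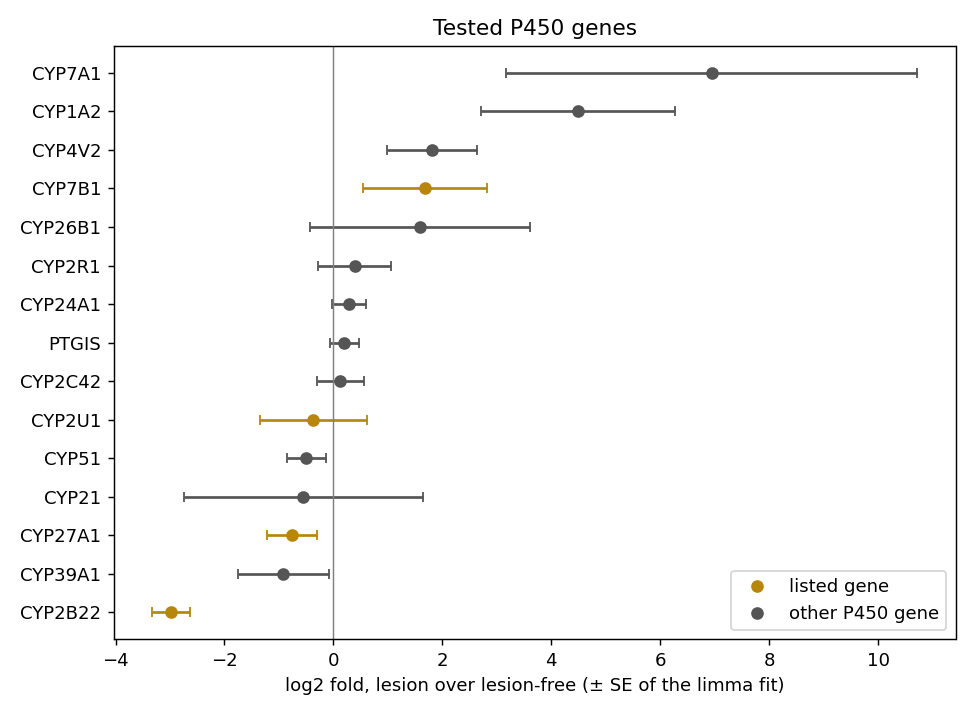
Log2 fold of lesion over lesion-free pools (x axis, bars ± SE of the limma fit) for the 15 P450 genes tested, with listed genes in gold and other P450 genes in grey. CYP2B22 lies at -2.98, whereas CYP7A1 at 6.95 and CYP1A2 at 4.50 have few or no lesion-free counts and wide errors.

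The enzymes and regulators around the P450s were taken from lists of redox partners, the AHR pathway, xenobiotic receptors, conjugating and other oxidising enzymes, oxysterol and bile acid enzymes, eicosanoid enzymes and heme metabolism. With the other P450 genes they held 104 matched gene entries, of which 79 were tested. By limma with voom weights 0 were called higher and 0 lower, against 0.968% and 0.0771% of all genes tested. At an unadjusted p under 0.05, 7 were higher and 4 lower. Limma-trend called 0 as well, and voom with sample quality weights called 1, LTC4S. Over all genes tested 757 were higher and 484 lower at an unadjusted p under 0.05. The median log2 fold was -0.12 over these 79 genes and -0.0022 over all genes tested.

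Of the redox partners 8 were tested, with a median log2 fold of -0.04. CYB5R3, the main cytochrome b5 reductase, was at 951 ± 198 CPM in lesion pools and 1361 ± 206 CPM in lesion-free pools (SD, n = 3 pools each), without overlap (log2 fold -0.53, SE 0.27, limma adjusted p = 0.521). PGRMC2, a heme-binding membrane protein, was at 120.5 ± 23.0 CPM in lesion pools and 111 ± 28.4 CPM in lesion-free pools. CYB5A, the cytochrome b5 of the endoplasmic reticulum, and FDXR, the reductase that serves mitochondrial P450 enzymes such as CYP27A1, had log2 folds of 0.28 (SE 0.30) and 0.43 (SE 0.58).

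AHR, the receptor that induces CYP1A1, was matched by identifier and had 56.5, 16.1 and 23.9 CPM in lesion pools, against 4.63, 12.9 and 4.57 CPM in lesion-free pools. All lesion pools were above all lesion-free pools, lesion replicate 2 only a little. The log2 fold was 2.01 (SE 0.60), and limma did not call it (adjusted p = 0.186). Without lesion replicate 2 it was called (log2 fold 2.44, limma adjusted p = 0.0442), and over the alternatives the adjusted p ran between 0.0442 and 0.436. ARNT, the partner with which AHR binds DNA, had a log2 fold of -0.12 (SE 0.28), and PTGES3, a chaperone of the receptor, 0.04 (SE 0.30). Of 2 further AHR targets, TIPARP was at 8.65 ± 3.78 CPM in lesion pools and 3.80 ± 1.25 CPM in lesion-free pools (SD, n = 3 pools each), with overlap, and NQO1 at 24.4 ± 5.68 CPM in lesion pools and 24.2 ± 4.67 CPM in lesion-free pools.

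Of the receptors and factors that drive CYP2B genes in liver, NR1I2, the pregnane X receptor, was at 0 in all 6 pools. Of the 13 symbols listed, NR1I3 (the constitutive androstane receptor), RXRA, RXRB, PPARGC1A and TEF were not matched. Nothing can be said of their levels here. CEBPB, a basic leucine zipper factor, had 21.1, 101 and 81.7 CPM in lesion pools, against 147, 169 and 124 CPM in lesion-free pools, without overlap and lowest in lesion replicate 1. Its log2 fold was -1.25 (SE 0.44, limma adjusted p = 0.311), and -0.67 without lesion replicate 1. A second gene entry of the symbol CEBPB had 110 counts in lesion replicate 1, the same number as the first entry there, and 0 in each other pool. With the entries summed the log2 fold was -0.99 (SE 0.32, limma adjusted p = 0.216). Over all alternatives, of which summing the entries is only 1, limma's adjusted p for CEBPB ran between 0.111 and 0.642. NR3C1, the glucocorticoid receptor, had a log2 fold of 0.59 (SE 0.41). CEBPA, the related liver factor, had 9, 150 and 257 counts in lesion pools, against 22, 35 and 11 counts in lesion-free pools, with overlap (limma adjusted p = 0.472).

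Conjugating and other oxidising enzymes had 19 tested members and a median log2 fold of -0.40, with 14 below the median of all genes tested. GSTP1, a glutathione transferase, was at 83.1 ± 34.6 CPM in lesion pools and 129.9 ± 28.1 CPM in lesion-free pools (SD, n = 3 pools each), with overlap (limma adjusted p = 0.488). MGST3, a microsomal transferase, had a log2 fold of -0.32 (SE 0.29). MGST2, its relative that can also make leukotriene C, had 0, 2 and 2 counts in lesion pools, against 36, 28 and 24 counts in lesion-free pools (limma adjusted p = 0.376). FMO5, a flavin monooxygenase, was at 12.7 ± 5.00 CPM in lesion pools and 4.51 ± 2.31 CPM in lesion-free pools, without overlap (limma adjusted p = 0.459). EPHX2, the hydrolase of the epoxides that P450 enzymes make from arachidonic acid, had a log2 fold of -0.54 (SE 0.42).

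The oxysterol and bile acid enzymes had 8 tested members and a median log2 fold of 0.06. NR1H2, the oxysterol receptor LXR beta, had 181, 212 and 219 CPM in lesion pools, against 341, 257 and 306 CPM in lesion-free pools, without overlap. Its log2 fold was -0.56 (SE 0.25, limma adjusted p = 0.459). OSBP, an oxysterol-binding protein, was level at -0.01 (SE 0.25). CH25H, which makes the other main substrate of CYP7B1, had 18, 25 and 24 counts in lesion pools, against 23, 22 and 29 counts in lesion-free pools. HSD3B7, which acts after CYP7A1 and CYP7B1, was at 36.0 ± 12.9 CPM in lesion pools and 32.0 ± 8.13 CPM in lesion-free pools (SD, n = 3 pools each).

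The eicosanoid enzymes had 11 tested members and the median log2 fold furthest above that of all genes, at 0.62, with 8 positive and 3 negative. Of these, 3 leukotriene genes, LTC4S, ALOX5 and ALOX5AP, had an unadjusted p under 0.05. LTC4S, the leukotriene C synthase of myeloid cells, had 21.5, 18.1 and 34.6 CPM in lesion pools, against 8.19, 5.75 and 4.57 CPM in lesion-free pools, without overlap. Its log2 fold was 2.01 (SE 0.51, limma adjusted p = 0.0935). It was called with plain library totals (adjusted p = 0.0486), with sample quality weights (0.0287) and without lesion replicate 2 (0.0467), and over the alternatives the adjusted p ran between 0.0287 and 0.333.

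ALOX5, the lipoxygenase that starts leukotriene synthesis, had 39.6, 16.2 and 9.03 CPM in lesion pools, against 6.68, 2.40 and 3.56 CPM in lesion-free pools. Its groups did not overlap (log2 fold 2.00, SE 0.77, limma adjusted p = 0.349). ALOX5AP, its activating protein, was at 31.4 ± 8.22 CPM in lesion pools and 18.0 ± 1.35 CPM in lesion-free pools (SD, n = 3 pools each, limma adjusted p = 0.44). LTA4H, the hydrolase that forms leukotriene B, had a log2 fold of -0.16 (SE 0.28). Macrophage markers, whose sums are given above, moved the same way as the first 3 of these genes, and their part in the values was not tested.

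Heme metabolism had 10 tested members, 9 of them with a negative log2 fold, and a median of -0.63. HMOX2, the constitutive heme oxygenase, had 40.6, 58.0 and 84.9 CPM in lesion pools, against 136.8, 90.9 and 87.4 CPM in lesion-free pools. Its groups were apart only by a narrow margin (log2 fold -0.77, SE 0.32, limma adjusted p = 0.402). UROD, of heme synthesis, was at 37.3 ± 7.33 CPM in lesion pools and 51.6 ± 7.71 CPM in lesion-free pools (SD, n = 3 pools each), with overlap (limma adjusted p = 0.602). ALAS1, the first and rate-limiting enzyme of the pathway, had a log2 fold of -0.49 (SE 0.31).

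**Figure D5:**
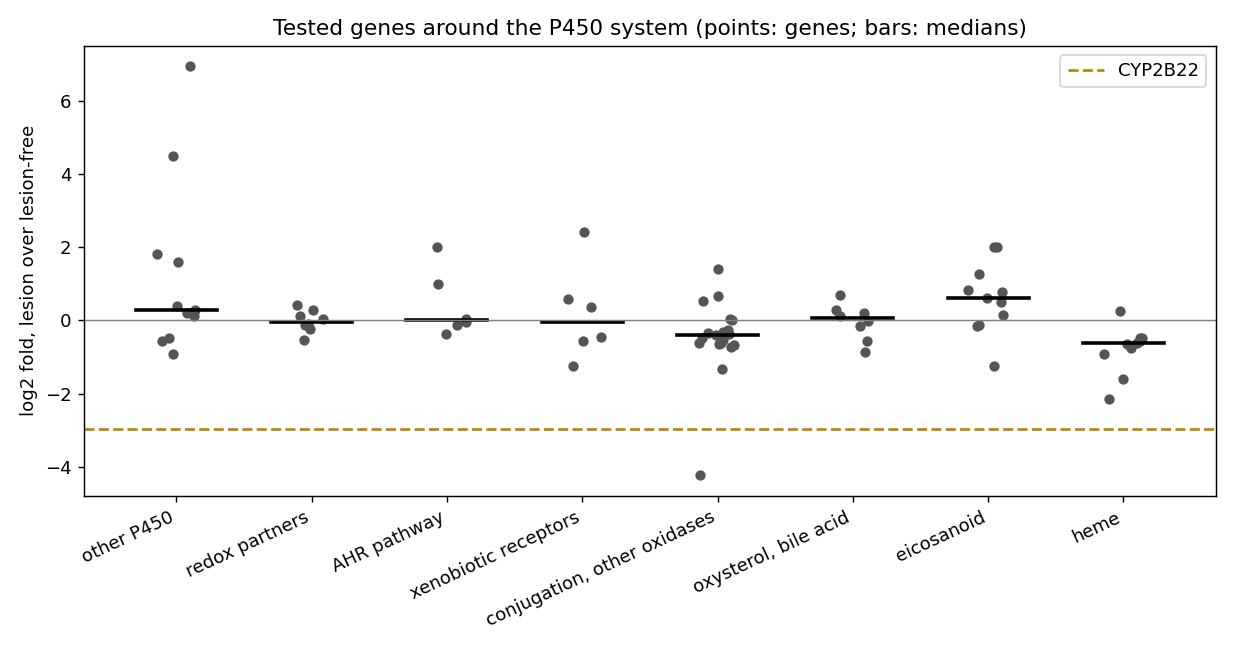
Log2 fold of lesion over lesion-free pools (y axis) for the 79 tested genes of 8 lists around the P450 system; points are genes, bars the medians, and the dashed line marks CYP2B22 at -2.98. None of the 79 was called; medians lie between -0.63 for heme metabolism and 0.62 for eicosanoid enzymes.

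Total counts per pool lay between 4650176 in lesion replicate 1 and 11442433 in lesion replicate 3. Low genes are therefore measured least well in lesion replicate 1. That pool also had the fewest genes with a count, 10754 against 11834 to 13502 in the other pools. Some genes of moderate level were absent there. FECH, picked as an example, had 0 counts there against 241 and 230 in lesion replicates 2 and 3, and UROS 0 against 129 and 157. The reason for these zeros was not tested.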

How the data were processed

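The authors deposited a table of raw read counts per gene and a table per isoform, with 1 column per pool, made from libraries of a stranded total RNA kit per the labels' protocols. RSEM 1.3.0 and edgeR are listed in the submitters' processing notes with no role. For aligner and build, the sources used here give no name. Commas inside the deposited values were removed, which left whole numbers. Because of the commas the columns had been registered here under a general unit, for which limma was chosen. A negative binomial model would also suit such counts and was not fitted. Limma 3.58.1 in R 4.3.3 was used with voom weights and robust empirical Bayes moderation (0.5 added to each count, TMM scaling, trimming 30% of M and 5% of A). Genes were tested when they reached 1 CPM, that is 10 counts in a library of median size, in at least 3 pools and 15 counts in all. Printed CPM are counts over the TMM-scaled library. P-values are two-sided and adjusted by Benjamini and Hochberg over 11673 genes, with a threshold of 0.05.

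The listed genes, the lists around them and the marker lists were chosen with earlier results of these data known. Named genes are the listed ones, any called gene of the lists, the 2 tested genes of highest mean CPM in each list and the 5 of the profile closest to CYP2B22. Further genes, among them RAB4B, AXL, AHR and CYP7A1, were chosen after their values were seen. An identifier without a symbol was all that 7481 genes had. How reads shared by similar genes were counted is not stated, so counts of CYP2B22 against close relatives are uncertain.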

Additional observations from a re-analysis of the deposited data

How the results depend on the processing

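CYP2B22 kept its direction under all 13 alternatives (log2 fold -3.20 to -2.63), as did CYP27A1 (-0.91 to -0.62) and CYP7B1 (1.34 to 2.49). CYP2U1 ran between -1.04 and 0.67, being positive only without lesion replicate 2. Over all genes, 113 were called higher and 9 lower. These counts were 171 and 17 without a low-count filter, and 213 and 40 with sample quality weights. With 2 added before the log in limma-trend, 182 were higher. Leaving out 1 pool gave 54 to 143 higher and 3 to 33 lower. Leaving out lesion-free replicate 5 or 6 gave 63 and 54 higher genes. The lower genes numbered 33 without lesion replicate 3 and 5 without lesion replicate 1. Leaving out lesion-free replicate 4, 5 or 6 gave 17, 4 and 3 lower genes. Of the genes around the P450s, 0 were called higher, against 1 with plain library totals, 1 with sample quality weights and 0 to 2 when 1 pool was left out, 2 without lesion replicate 2 (AHR and LTC4S). None was called lower under any alternative. DARC was called lower with sample quality weights (log2 fold -1.50). The cause of these changes was not tested. Plain library totals moved the median of all genes to 0.16, and relative to it CYP2B22 and the list medians changed little: heme metabolism stood 0.63 below it by TMM and 0.64 below it by plain totals. CYP7A1, MGST2 and CYP26B1 gave a value under 10 of 13 alternatives. No paired analysis was possible because the groups share no replicate number. The merging of 11 animals per group into 3 pools and the low depth of lesion replicate 1 limit what can be seen in genes of few counts, such as CYP1A1.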

Other observations

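The isoform table gives P450 names to transcripts of other genes. Of 59 isoforms with a P450 name 38 had a count. Among those with at least 15 counts over the 6 pools, 15 differed from every gene row of their name. Each of these 15 had exactly the counts of 1 gene row that carried only an identifier, and the reference table names 7 of those rows. An isoform named CYP2C42-201 had the counts of PDLIM1, a cytoskeletal protein of muscle (14808 counts), one named CYP26C1-201 those of MYOF, myoferlin (8974), and one named CYP2R1-201 those of SPON1, a matrix protein (2836). CYP26C1 itself was at 0 in the gene table. The P450 values of this study were therefore taken from the gene table only.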
